A study of Saccharomyces cerevisiae with 12 samples.

Results

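The ADE genes encode the enzymes by which yeast makes adenine nucleotides. Described here are 8 of them, ADE1, ADE2, ADE4, ADE6, ADE8, ADE12, ADE13 and ADE17, chosen as the probes whose symbol in the platform annotation equals one of these names. They are 8 of the 6388 gene probes on the array. Each had 1 probe printed as 2 spots, so no member was lost and none was measured by competing probes. Their locus tags, matched by symbol in RefSeq's gene table of the R64 assembly and used as names only, are YAR015W (ADE1), YOR128C (ADE2), YMR300C (ADE4), YGR061C (ADE6), YDR408C (ADE8), YNL220W (ADE12), YLR359W (ADE13) and YMR120C (ADE17).

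The study asked whether medium that a slow-growing deletion strain had used alters gene expression in healthy cells. In every sample the cells were wild-type BY4742, a haploid laboratory strain of Saccharomyces cerevisiae of mating type alpha, grown for 2 doublings in filtered synthetic complete medium with 2% glucose in which other cells had already doubled 2 times. The groups are named by the strain that had used the medium. In set 2 these were bur2 medium (from a strain lacking BUR2, the cyclin of a transcription kinase), cho2 medium (lacking CHO2, a phospholipid methyltransferase) and a wild-type medium. In set 1 they were cbf1 medium (lacking CBF1, a DNA-binding factor of methionine genes and centromeres), npl3 medium (lacking NPL3, an mRNA export protein) and another wild-type medium. Each of the 6 groups had 2 arrays, array 1 with the sample in Cy3 and array 2 with the sample in Cy5, and every array carried the same wild-type reference RNA from 1 culture in the other dye. The sources do not settle whether both arrays of a group hold separate cultures or 1 RNA labelled both ways, so n counts arrays and the tests measure the spread between arrays, which may be technical.

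Yeast builds the purine ring on phosphoribosyl pyrophosphate in a chain of reactions that ends at inosine monophosphate, from which AMP and GMP are made by separate branches. Transcription of most of the chain is raised by the factors Bas1 and Bas2 (also called Pho2) when adenine is short, through late intermediates of the pathway that promote the pairing of both factors. Synthetic complete medium contains adenine, which cells take up through Fcy2 and turn into AMP by salvage, and adenine in the medium is known to keep the ADE genes low.

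Median spot intensities over the gene spots ranged over 185 to 507 in Cy5 and 170 to 367 in Cy3. Between 74.8% and 84.7% of gene spots exceeded 2 times their background in both channels, with set 2 dimmer than set 1. Within a group, array 1 and array 2 correlated at r = 0.667 to 0.817 over the gene probes, which are not independent replicates. The 4 alpha-specific genes measured lay 29.1 to 443 times over background in the sample channel and the 7 a-specific genes 1.13 to 3.25 times. Of the 4 marker genes deleted in this strain, LEU2 and URA3 lay 1.03 to 1.19 times over it, whereas LYS2 lay 1.65 to 3.07 and HIS3 2.59 to 8.44 times over it. The 8 ADE probes lay 3.29 (ADE8) to 42.4 (ADE2) times over background with 0 saturated spots, and their duplicate spots differed by a median of 0.028 on the log2 scale, the same as over all gene probes.

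Against the reference RNA, the ADE genes did not move as 1 group: ADE1, ADE4 and ADE2 were higher, ADE8 and ADE6 lower, and ADE17, ADE13 and ADE12 did not pass the test. Values are log2 ratios of sample over reference, and the test is limma's moderated test over all 12 arrays with Benjamini-Hochberg adjustment over the 6388 gene probes, called at an adjusted p under 0.05. Of the 8 members 3 were called higher and 2 lower, which is 62.5% of them. Over all gene probes 70.0% were called in this comparison, 34.4% higher and 35.6% lower, so the share of members called was near that of all probes. The median over the 8 members was 0.025, beside -0.0034 over all gene probes. Each ratio is relative to the total RNA of a culture, in which fewer cells expressing a gene and less RNA per cell cannot be told apart. The reference RNA came from 1 culture, so its own spread is not in any test against the reference. A call there can therefore reflect that culture alone.

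ADE4 encodes the amidotransferase that commits phosphoribosyl pyrophosphate to purine synthesis. In set 2 its log2 ratios were -0.049 and -0.027 in bur2 medium, 0.10 and 0.15 in cho2 medium and 0.056 and 0.051 in wild-type medium. In set 1 they were 0.15 and 0.14 in cbf1 medium, 0.19 and 0.10 in npl3 medium and 0.018 and 0.27 in wild-type medium. ADE4 was thus above the reference on 10 of 12 arrays, and the 2 arrays below it were those of bur2 medium. Its mean ratio was 0.096 ± 0.020 (SE, n = 12 arrays; adjusted p = 0.00227), or 1.07-fold.

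ADE8, whose product formylates the growing ring at the third step, had the lowest mean of the members. Its ratios were -0.25 and -0.20 in bur2 medium, -0.23 and -0.24 in cho2 medium and -0.22 and -0.18 in the wild-type medium of set 2. They were -0.28 and -0.11 in cbf1 medium, -0.13 and -0.16 in npl3 medium and -0.27 and -0.10 in the wild-type medium of set 1. All 12 arrays were below 0, and the mean was -0.20 ± 0.016 (adjusted p = 6.84e-06), or 0.872-fold. ADE8 was also the dimmest member, at 3.29 to 9.17 times background, and the offset used in background correction draws the ratios of dim spots toward 0.

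ADE6 encodes the synthetase of the fourth step. Its 12 ratios ran from -0.28 to -0.012 with a median of -0.094, all below 0, with the lowest on array 2 of cbf1 medium and the highest on array 1 of npl3 medium. The mean was -0.11 ± 0.019 (adjusted p = 0.000773). Among all gene probes 15.1% were below 0 on all 12 arrays, as ADE6 and ADE8 were, and 19.2% above 0 on all 12, as ADE1 was.

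ADE2 and ADE1 encode the consecutive carboxylase and synthetase steps, and loss of either enzyme is known for the red pigment it leaves in the cells. ADE1 had ratios of 0.12 and 0.091 in bur2 medium, 0.14 and 0.13 in cho2 medium and 0.066 and 0.062 in the wild-type medium of set 2. In set 1 it had 0.21 and 0.40 in cbf1 medium, 0.27 and 0.19 in npl3 medium and 0.051 and 0.43 in wild-type medium. It was above the reference on 12 of 12 arrays, with the largest mean of the members, 0.18 ± 0.029 (adjusted p = 0.000560), or 1.13-fold. ADE2 ran from -0.091 to 0.13 with a median of 0.042 and was above 0 on 9 of 12 arrays. Its mean of 0.038 ± 0.015 passed narrowly (adjusted p = 0.0452), and the call was lost in 8 of the 12 fits that left out 1 array, with adjusted p values up to 0.129. It was also lost in 6 of the other ways of processing all 12 arrays, with adjusted p values of 0.0507 (darkest 25% of probes left out), 0.0805 (no background subtraction), 0.0909 (no dye term), 0.130 (offset of 10), 0.195 (loess per print tip) and 0.198 (median centring).

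ADE13 encodes adenylosuccinate lyase, which acts both in the chain and in the AMP branch. Its ratios ran from -0.086 to 0.080 with a median of 0.019 and its mean was 0.013 ± 0.015 (adjusted p = 0.475). ADE17 encodes 1 of a pair of isozymes that close the ring to inosine monophosphate. It ran from -0.14 to 0.29 with a median of 0.060, with a mean of 0.047 ± 0.025 (adjusted p = 0.122). Without array 1 of the wild-type medium of set 1 it was 0.073, with an adjusted p of 0.00274. ADE12 encodes the synthase that opens the AMP branch, and ran from -0.19 to 0.19 with a median of 0.018 with a mean of 0.012 ± 0.026 (adjusted p = 0.709). In the deposited log2 table ADE13 (0.052, adjusted p = 0.00337) and ADE17 (0.074, adjusted p = 0.0151) were called higher, as was ADE13 with loess per print tip (0.040, adjusted p = 0.0167) and ADE17 with median centring (0.067, adjusted p = 0.0350). These genes lay above 0 on 8 (ADE13), 7 (ADE17) and 7 (ADE12) of the 12 arrays.

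**Figure D1:**
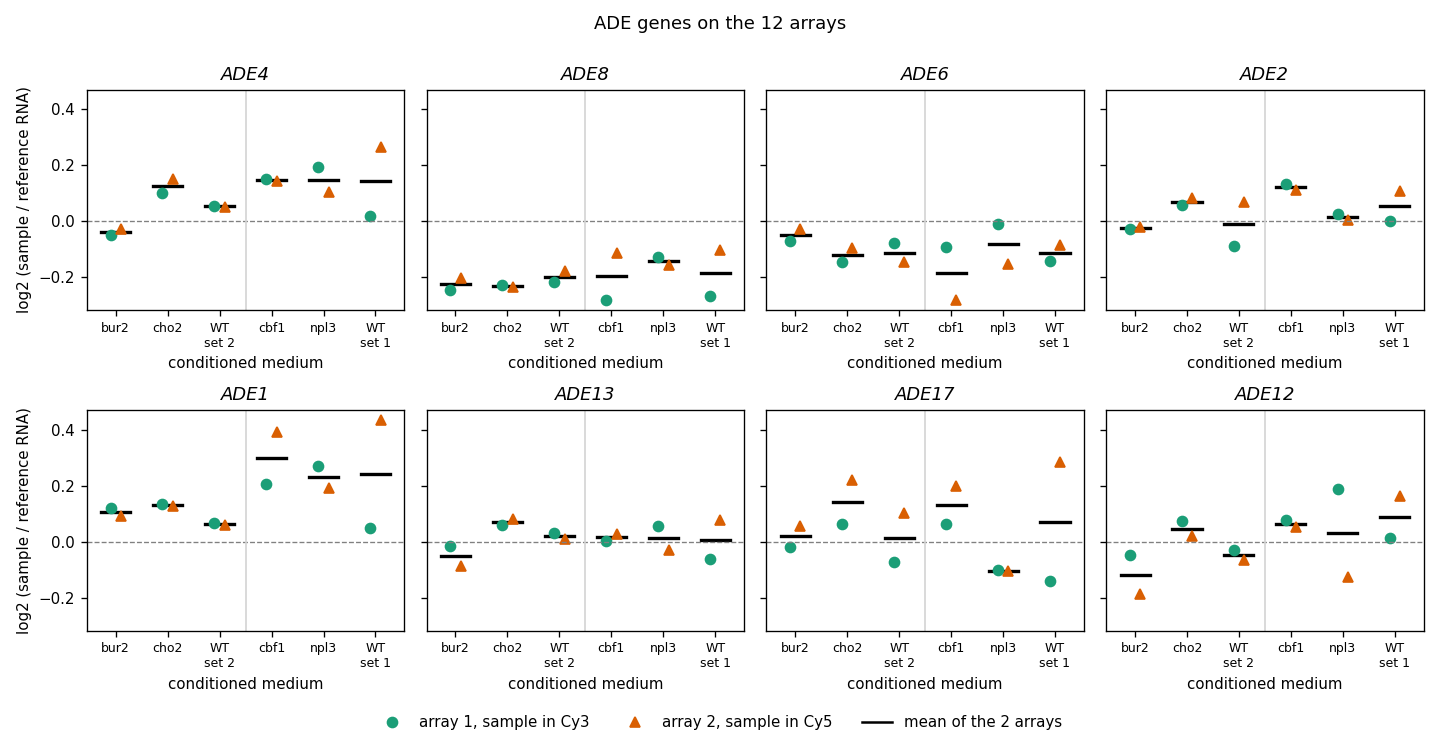
Log2 ratio of sample over reference RNA (y axis) of each ADE gene on the 12 arrays, by conditioned medium (x axis), ordered by pathway step; circles are array 1 (sample in Cy3), triangles array 2 (sample in Cy5), bars the mean of both. ADE1 lies above 0 and ADE6 and ADE8 below 0 on every array, and the widest gap between the arrays of a group is that of ADE17 in the wild-type medium of set 1 (-0.14 and 0.29).

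Taken medium by medium, ADE8 was the only member called against the reference in each of the 6 media. Its means fell in the order cho2 medium (-0.23 ± 0.0040, SD, n = 2 arrays here and below), bur2 medium (-0.22 ± 0.029), wild-type medium of set 2 (-0.20 ± 0.027), cbf1 medium (-0.20 ± 0.12), wild-type medium of set 1 (-0.19 ± 0.12) and npl3 medium (-0.14 ± 0.020), from lowest to highest. Neighbours in that order overlapped in their arrays throughout. ADE1 and ADE4 were called higher in cbf1, npl3 and wild-type medium of set 1 and in no medium of set 2, and ADE2 (higher) and ADE6 (lower) were called in cbf1 medium alone. This gave 5 members called in cbf1 medium, 3 in npl3 medium and 3 in the wild-type medium of set 1, against 43.2%, 43.1% and 41.6% of all gene probes called there. In bur2 medium, cho2 medium and the wild-type medium of set 2 it was 1 member each, against 34.2%, 37.4% and 32.4%. Each of these calls was lost in at least 1 fit that left out an array of its own medium, with adjusted p values for ADE8 of up to 0.287 (npl3 medium without array 2). In npl3 medium ADE8 also missed the limit with loess per print tip (adjusted p = 0.0679), in the deposited log2 table (0.0546) and without the dye term (0.0570). The ADE4 calls held in 4 (cbf1 medium), 2 (npl3 medium) and 3 (wild-type medium of set 1) of the 12 fits that left out 1 array. All 3 were lost with loess per print tip, in the deposited log2 table and without the dye term, with adjusted p values of 0.0648 to 0.117. The ADE4 call was also lost in npl3 medium with median centring (0.0509) and in wild-type medium with an offset of 10 (0.0559) or a replicate block in each set (0.0519), and that of ADE1 in npl3 medium without the dye term (0.0538). In cbf1 medium ADE2 missed the limit with loess per print tip (0.0506), median centring (0.137) and no dye term (0.0645), and ADE6 with loess per print tip (0.0634) and in the deposited log2 table (0.0698). A call in one medium and not in another does not show that the media differ, and the direct comparisons follow.

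The means of ADE1 ran, from highest to lowest, 0.30 ± 0.13 in cbf1 medium, 0.24 ± 0.27 in the wild-type medium of set 1, 0.23 ± 0.054 in npl3 medium, 0.13 ± 0.0066 in cho2 medium, 0.11 ± 0.020 in bur2 medium and 0.064 ± 0.0028 in the wild-type medium of set 2. Neighbours within set 1 overlapped in their arrays. Within set 2, the arrays of cho2, bur2 and wild-type medium did not overlap from one to the next. Of all gene probes, 28.4% did not overlap between bur2 and cho2 medium and 19.1% between bur2 and wild-type medium of set 2. Neighbours of different sets (npl3 and cho2 medium) were not compared this way. With median centring the arrays of bur2 and cho2 medium overlapped for ADE1. Its difference for bur2 minus cho2 medium was then 0.0515, against -0.0268 in the main processing. No difference of ADE1 that was tested between media passed. For ADE4 the means of the 3 media of set 1 lay within each other's spread (0.15 ± 0.063 in npl3, 0.15 ± 0.0050 in cbf1 and 0.14 ± 0.18 in wild-type medium), followed by cho2 medium (0.12 ± 0.035), the wild-type medium of set 2 (0.054 ± 0.0029) and bur2 medium (-0.038 ± 0.015).

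No ADE gene was called in bur2 or cho2 medium against the wild-type medium of their set. In cho2 medium 6 of the 8 members were higher, with a median difference of 0.070 against -0.00019 over all gene probes. ADE2 had 0.057 and 0.083 in cho2 medium, against -0.091 and 0.070 in wild-type medium, a difference of 0.081 ± 0.050 (SE; adjusted p = 1.00) with overlapping arrays. ADE17 had 0.063 and 0.22 in cho2 medium, against -0.074 and 0.10 in wild-type medium, also overlapping, a difference of 0.13 ± 0.085 (adjusted p = 1.00). The arrays of both media did not overlap for 5 members, ADE1, ADE4, ADE12 and ADE13 being higher and ADE8 lower in cho2 medium, whereas 17.0% of all gene probes did not overlap. That count was 1 with loess per print tip and 0 with median centring.

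In bur2 medium the members went both ways, 3 up and 5 down from wild-type medium, around a median of -0.020 beside -0.0016 over all gene probes. ADE4 had -0.049 and -0.027 in bur2 medium, against 0.056 and 0.051 in wild-type medium, and differed by -0.092 ± 0.069 (adjusted p = 0.999). ADE13 had -0.014 and -0.086 in bur2 medium, against 0.032 and 0.0098 in wild-type medium, and differed by -0.071 ± 0.054 (adjusted p = 0.999). Both lay lower on each bur2 array than on each wild-type array, and ADE1 and ADE6 higher, so that 4 members did not overlap, against 19.1% of all gene probes. Whether this count holds under other processing was not tested.

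In cbf1 and npl3 medium, too, no ADE gene was called against the wild-type medium of set 1. In cbf1 medium 5 members were higher and 3 lower, with a median of 0.0069 (0.00085 over all gene probes). ADE2 had 0.13 and 0.11 in cbf1 medium, against 0.0020 and 0.11 in wild-type medium, a difference of 0.067 ± 0.050 (adjusted p = 1.00), and was the 1 member whose arrays did not overlap, against 10.5% of all gene probes. ADE6 had -0.092 and -0.28 in cbf1 medium, against -0.14 and -0.084 in wild-type medium, a difference of -0.074 ± 0.066 (adjusted p = 1.00), and its sign turned without array 2 of cbf1 medium (0.015).

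In npl3 medium 4 members were higher and 4 lower, with a median of -0.0027 beside 0.00080 over all gene probes. ADE17 had -0.10 and -0.10 in npl3 medium, against -0.14 and 0.29 in wild-type medium, the largest difference of a member in any of the 4 comparisons at -0.17 ± 0.085 (adjusted p = 1.00). The npl3 arrays lay between the wild-type ones, and the difference was -0.33 without array 1 and -0.015 without array 2 of the wild-type medium, and -0.27 without array 1 and -0.076 without array 2 of npl3 medium. ADE2 had 0.026 and 0.0030 in npl3 medium, against 0.0020 and 0.11 in wild-type medium, a difference of -0.040 ± 0.050 (adjusted p = 1.00). The number of members without overlap was 0, against 14.6% of all gene probes.

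Limma called 0 of 6388 gene probes (0%) in each of these 4 comparisons. With no adjustment, the limit of 0.05 took 242 probes (3.79%) in bur2 medium, 126 (1.97%) in cho2 medium, 85 (1.33%) in cbf1 medium and 181 (2.83%) in npl3 medium, and 0 of the 8 ADE genes in any. The 95% intervals of the members' differences reached at most 1.21-fold either way in bur2 medium (ADE12), 1.25-fold in cho2 medium (ADE17), 1.22-fold in cbf1 medium (ADE1) and 1.29-fold in npl3 medium (ADE17). Over all other ways of processing or subsetting the arrays that were run, the widest was 1.42-fold (ADE17 in npl3 medium, without array 1 of npl3 medium). The main fit pools the spread of each gene over both sets. Fitted on the arrays of set 2 alone, the widest bound was 1.165-fold (ADE17 in cho2 medium). On those of set 1 alone it was 1.363-fold (ADE17 in npl3 medium). The members' median SE in these comparisons was 0.067, against 0.049 over all gene probes.

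**Figure D2:**
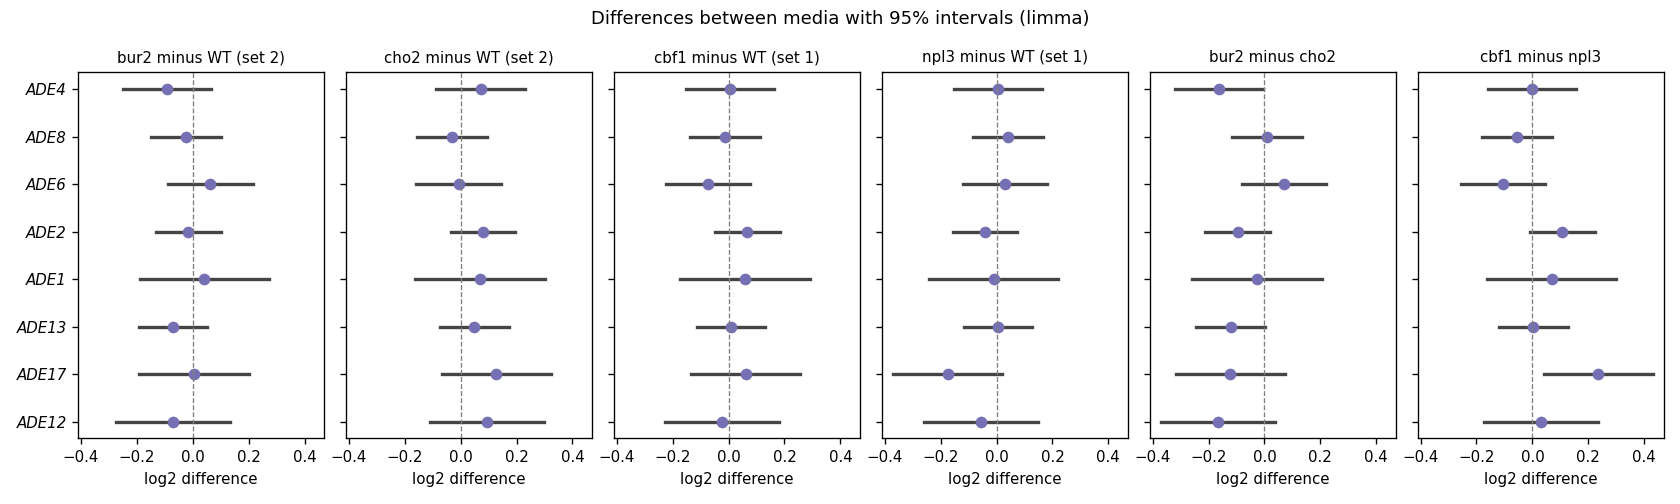
Log2 difference between media (x axis) for each ADE gene (y axis, in pathway order) in 6 comparisons; dots are limma estimates and lines their 95% intervals. All intervals of the 4 comparisons with wild-type medium include 0, while 6 of 8 members lie left of 0 in bur2 minus cho2 medium.

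Of the 6 comparisons of single media, bur2 against cho2 medium had the most members whose arrays did not overlap, although it had 0 with median centring. Of the 8 members, 6 were lower in bur2 medium than in cho2 medium, with a median of -0.11 beside 0.00067 over all gene probes. ADE4 had -0.049 and -0.027 in bur2 medium, against 0.10 and 0.15 in cho2 medium, a difference of -0.16 ± 0.069 (unadjusted p = 0.0447, adjusted p = 0.595). That SE pools the spread over both sets. The SD of ADE4 between arrays ranged from 0.0029 (wild-type medium of set 2) to 0.18 (wild-type medium of set 1). ADE13 had -0.014 and -0.086 in bur2 medium, against 0.060 and 0.080 in cho2 medium, a difference of -0.12 ± 0.054 (adjusted p = 0.603). The branch gene ADE12 had the largest difference of the members here (-0.17 ± 0.089, adjusted p = 0.659). For ADE1, ADE2, ADE4, ADE12, ADE13 and ADE17 both bur2 arrays lay below both cho2 arrays, for ADE6 above them, and only ADE8 overlapped.

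These 7 members without overlap compare with 28.4% of all gene probes, of which 12.9% lay lower in bur2 medium. No member was called, limma called 0 of 6388 gene probes (0%), and 1 member (ADE4) had a raw p below 0.05, as did 532 gene probes (8.33%). The pattern turned on how the arrays were normalized: 5 members did not overlap with loess per print tip (median -0.059) and 5 in the deposited log2 table (median -0.081), but 0 with median centring, where the median was 0.0020. Both comparisons of set 2 with wild-type medium rest on the same 2 wild-type arrays, on which the members' median was -0.052 (array 1) and 0.031 (array 2). It was -0.038 and -0.028 on the bur2 arrays and 0.062 and 0.082 on the cho2 arrays.

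Between cbf1 and npl3 medium no ADE gene was called, and ADE17 had the largest difference of the members. It had 0.065 and 0.20 in cbf1 medium, against -0.10 and -0.10 in npl3 medium, without overlap, a difference of 0.24 ± 0.085 (95% interval 0.040 to 0.43; unadjusted p = 0.0238, adjusted p = 1.00). This was 0.33 without array 1 and 0.14 without array 2 of npl3 medium. ADE2 had 0.13 and 0.11 in cbf1 medium, against 0.026 and 0.0030 in npl3 medium, also without overlap (0.11 ± 0.050, adjusted p = 1.00). These 2 members without overlap, both higher in cbf1 medium, compare with 14.7% of all gene probes. With loess per print tip 1 member did not overlap, and with median centring 1 was higher and 1 lower. Limma called 2 gene probes (0.0313%), neither an ADE gene. The raw p was below 0.05 for 1 member, against 1.50% of all gene probes, and the members' median was 0.018.

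With the 8 arrays of deletion-strain media set against the 4 of wild-type media, no ADE gene was called and the differences were small. The 8 differences ran from -0.014 to 0.040 around a median of 0.00053, 4 up and 4 down. ADE2 (0.023 ± 0.031) and ADE1 (0.040 ± 0.062) had the smallest p values, both with an adjusted p of 0.999. No interval reached beyond 1.13-fold either way (ADE1). Limma called 0 of 6388 gene probes (0%). The raw p was below 0.05 for 184 gene probes (2.88%) and for 0 members.

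ADE1 and ADE4 had lower ratios in set 2 than in set 1, but neither passed the test, nor did any other member. ADE1 had 0.062, 0.11 and 0.14 as its lowest, median and highest ratio in set 2, against 0.051, 0.24 and 0.43 in set 1. Its means were 0.10 ± 0.032 in set 2 and 0.26 ± 0.14 in set 1 (SD, n = 6 arrays each), a difference of -0.16 ± 0.058 (SE; adjusted p = 0.121). ADE4 had -0.049, 0.054 and 0.15 in set 2, against 0.018, 0.15 and 0.27 in set 1, a difference of -0.10 ± 0.040 (adjusted p = 0.145). Both had a raw p below 0.05, as 28.4% of all gene probes had, and neither was called, with arrays that overlapped between the sets. Without array 1 of the wild-type medium of set 1, on which ADE1 and ADE4 were near the reference, both were called, at -0.22 (adjusted p = 0.00677) and -0.14 (adjusted p = 0.00767).

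ADE12 had -0.19, -0.039 and 0.074 in set 2, against -0.13, 0.065 and 0.19 in set 1, a difference of -0.10 ± 0.051 (adjusted p = 0.240). The other differences were -0.053 ± 0.029 for ADE2 (adjusted p = 0.281), -0.043 ± 0.031 for ADE8 (adjusted p = 0.422) and 0.033 ± 0.038 for ADE6 (adjusted p = 0.623). ADE17 (0.026 ± 0.049, adjusted p = 0.790) and ADE13 (0.0012 ± 0.031, adjusted p = 0.988) differed least for their error. Of the 8 members 0 were called, against 9.88% of all gene probes, and 0 had sets that did not overlap, against 3.32%. Only wild-type medium was in both sets, and every deletion-strain medium was in a single set. Over all media, the set therefore cannot be told apart from these strains, nor from whatever else differed between the sets.

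Against the reference, the sets taken alone gave different calls. In set 2 ADE8 (-0.22 ± 0.022 (adjusted p = 6.17e-05)) and ADE6 (-0.094 ± 0.027 (adjusted p = 0.0160)) were called lower, and ADE1 (0.10 ± 0.041 (adjusted p = 0.0672)) and ADE4 (0.047 ± 0.028 (adjusted p = 0.192)) were not called. In set 1 ADE1 (0.26 ± 0.041 (adjusted p = 0.000645)), ADE4 (0.15 ± 0.028 (adjusted p = 0.00185)) and ADE2 (0.064 ± 0.021 (adjusted p = 0.0236)) were called higher, and ADE8 (-0.18 ± 0.022 (adjusted p = 0.000167)) and ADE6 (-0.13 ± 0.027 (adjusted p = 0.00307)) lower. That is 2 members in set 2, where 56.7% of all gene probes were called, and 5 in set 1, where 64.0% were. ADE12 was -0.039 in set 2 and 0.062 in set 1, called in neither.

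**Figure D3:**
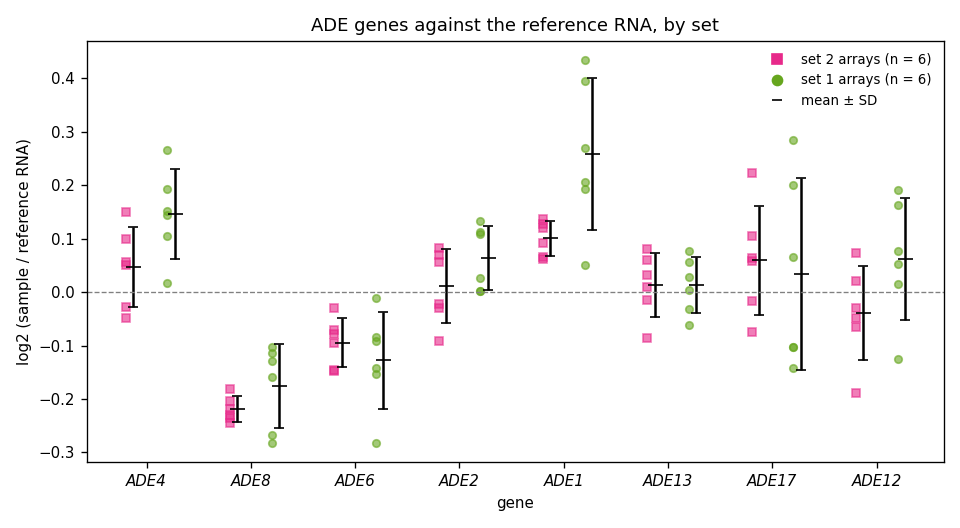
Log2 ratio of sample over reference RNA (y axis) of each ADE gene (x axis, in pathway order) on the 6 arrays of set 2 (squares, left) and the 6 arrays of set 1 (circles, right), with mean and SD. ADE1 averages 0.10 in set 2 and 0.26 in set 1 with overlapping arrays, while ADE8 stays below 0 in both.

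The arrays of 1 group could differ by more than the media did. In the wild-type medium of set 1, array 1 and array 2 had 0.051 and 0.43 for ADE1, -0.14 and 0.29 for ADE17 and 0.018 and 0.27 for ADE4. On the same arrays the median of 12 ribosome biogenesis genes was 0.070 and 0.31, and that of 12 stress-induced genes 0.091 and -0.38. Over the remaining arrays of set 1 these medians ranged between 0.25 and 0.38 and between -0.46 and -0.21. Those of set 2 ranged between 0.11 and 0.15 and between 0.066 and 0.19. Within set 1, growth genes were lowest and stress genes highest on array 1 of the wild-type medium. On it ADE1, ADE2, ADE4, ADE13 and ADE17 had their lowest ratio of set 1, and ADE6, ADE8 and ADE12 did not. A link between these values was not tested. Without that array ADE1 and ADE4 were called between the sets and ADE17 against the reference, at the values given above. Pooled over the groups, the SD between arrays of a group was largest for ADE17 (0.15) and ADE1 (0.13) and smallest for ADE13 (0.053) and ADE2 (0.057). The array number is also the dye, and ADE17 was the 1 member with a called dye term, 0.16 ± 0.049 for a sample in Cy5 over one in Cy3 (adjusted p = 0.0320), against 37.7% of all gene probes. For ADE1, the dye term was 0.076 ± 0.058 (adjusted p = 0.337).

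Across the 6 medium means, each member was compared with the other members by its difference in level. Such distances were not taken between pairs of other genes, so whether the members resemble each other more was not tested. ADE2 and ADE13 were closest, with a root mean square difference of 0.050, and ADE4, ADE12 and ADE17 also had ADE2 as the nearest member (0.075, 0.050 and 0.061). ADE1 was nearest to ADE4 (0.10), and ADE6 and ADE8 to each other (0.10). The median profile of the members was -0.044 in bur2 medium, 0.070 in cho2 medium, 0.0025 in the wild-type medium of set 2, 0.094 in cbf1 medium, 0.014 in npl3 medium and 0.063 in the wild-type medium of set 1. The genes outside the list nearest to it were GCN5 (0.022), NPP1 (0.023), SPA2 (0.023), ATP25 (0.024) and TEX1 (0.025). Of 5318 named probes outside the list, 335 lay within 0.05 of this median profile. Single members could lie further from it: ADE1 ran from 0.064 to 0.30 over the medium means and ADE8 from -0.23 to -0.14.

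Of the remaining genes of the pathway, ADE3 (folate one-carbon supply) and ADE16 (the paralog of ADE17) were measured, and ADE5,7 matched no probe by symbol. ADE3 was called lower than the reference (-0.11 ± 0.030, adjusted p = 0.00951) and ADE16 had -0.050 ± 0.022 (adjusted p = 0.0711). Between the sets neither was called (ADE3 0.080 ± 0.059 for set 2 minus set 1, adjusted p = 0.426; ADE16 0.0044 ± 0.044, adjusted p = 0.962). ADE16 and ADE17 are close copies, so a probe for either may read both, which was not tested.

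In the gene lists that follow, calls against the reference stand beside 70.0% of all gene probes called (34.4% higher, 35.6% lower), and calls between the sets beside 9.88%. The list of genes that Bas1 and Bas2 control outside the pathway also went both ways. It includes BAS1 and PHO2, the genes of both factors themselves. Of 12 measured, 3 (BAS1 among them) were called higher and 7 (PHO2 among them) lower than the reference, that is 10 of 12. The median was -0.086, and no count was made without BAS1 and PHO2. BAS1 itself was 0.23 ± 0.014 (adjusted p = 1.34e-06) and MTD1, a folate dehydrogenase, 0.17 ± 0.012 (adjusted p = 3.31e-06). The histidine gene HIS4 was -0.44 ± 0.036 (adjusted p = 7.65e-06) and GCV1, of the glycine cleavage complex, -0.31 ± 0.027 (adjusted p = 1.38e-05), both further below the reference than any ADE gene. Between the sets 0 of the 12 were called, GCV2 (0.17 ± 0.049 for set 2 minus set 1, adjusted p = 0.0586) and HIS1 (-0.079 ± 0.038, adjusted p = 0.217) having the smallest p values.

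In the guanine branch, 3 of 4 genes were called higher than the reference and 1 lower (median 0.10), so 4 of 4 were called against 70.0% of all gene probes. IMD4 (0.11 ± 0.012), IMD3 (0.15 ± 0.021) and IMD2 (0.093 ± 0.019), which encode IMP dehydrogenases, were the higher ones, and GUA1, the GMP synthase gene, the lower one (-0.075 ± 0.019, adjusted p = 0.00609). All 4 were lower in set 2 than in set 1 and 0 were called, the smallest p values being those of IMD4 (-0.087 ± 0.024, adjusted p = 0.0590) and GUA1 (-0.12 ± 0.037, adjusted p = 0.0710). Of the 5 PRS genes, which make phosphoribosyl pyrophosphate, 2 were called lower than the reference, against 35.6% of all gene probes (median -0.043), PRS3 (-0.074 ± 0.015) and PRS2 (-0.057 ± 0.017), and 0 between the sets, with PRS3 at -0.084 ± 0.029 (adjusted p = 0.105) and PRS2 at -0.061 ± 0.034 (adjusted p = 0.288) for set 2 minus set 1.

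Uptake and salvage genes were all called against the reference, 5 higher and 8 lower of 13, against 70.0% of all gene probes (median -0.067, beside -0.0034 over all gene probes). The purine permease genes FCY2 (0.21 ± 0.016) and FCY22 (0.20 ± 0.019) were higher, and APT2 (-0.15 ± 0.013), a paralog of the adenine phosphoribosyltransferase gene APT1, and PNP1 (-0.14 ± 0.014), the purine nucleoside phosphorylase gene, lower. Between the sets 3 of the 13 were called, against 9.88% of all gene probes. FCY2 was higher in set 2 (0.16 ± 0.032, adjusted p = 0.0247), and FCY21 (-0.13 ± 0.025, adjusted p = 0.0193) and APT1 (-0.14 ± 0.035, adjusted p = 0.0436) lower. In the comparisons between media 0 genes of these 5 lists were called.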

How the data were processed

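RNA of conditioned cultures was measured on 12 spotted 2-colour arrays. The authors deposited the intensity of each spot and its background in both channels, extracted with Imagene from scans, and not normalized. The deposited log2 ratios per spot, used as an alternative, had been normalized by print-tip loess (span 0.4) with no background removed and gene-specific dye bias corrected. Its direction was checked against the scanner values: 11 columns gave sample over reference (r = 0.901 to 0.973) and that of array 1 of cho2 medium the reverse (r = -0.913), so it was turned. Another deposited table, made with limma 2.12.0 per the submitters' processing notes, holds the authors' own comparisons as log2 ratios and p-values, and was not used.

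From the intensities, background was corrected by normexp (offset 50), each array was normalized by loess (span 0.3) on the 12776 gene spots with the 2776 control spots left out, every ratio was expressed as sample over reference from the labelled dyes, and duplicate spots were averaged. Groups came from the labelled growth medium. A symbol was known for 5326 of 6388 gene probes and for 1062 not. No coordinates are given because the files name no genome build.

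One limma 3.58.1 fit (R 4.3.3) over the 12 arrays had 6 group means and a dye term, with 5 residual degrees of freedom and a prior of 3.29. Tests were two-sided, adjusted over 6388 probes, with a limit of 0.05 and 95% intervals. The number of arrays limits the precision. The fit was run on simulated data with independent noise for each probe. That noise had the same spread in both sets and no shifts of whole arrays, so the run does not cover either. Groups of 2 arrays allow no check for outlying arrays.

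The members, gene lists, comparisons and alternatives were chosen with earlier results of these data known. All members are described, and each comparison of media names members past the limit or else the 2 with the smallest p. Of each list at most 4 genes are named, those past the limit with the smallest p, or else 2, with PHO2 named besides. The genes most like the members are the 5 nearest by root mean square difference over the medium means. The alternatives tried were leaving out each array, a replicate block, no dye term, print-tip loess, median centring, no background subtraction, an offset of 10, dropping the darkest 25% of probes, the deposited log2 table, the arrays of 1 set, and all 4 wild-type arrays as control. Added after seeing the data were the sets alone against the reference and the overlap of arrays under other processing. Other members of the pathway were not analysed here beyond the lists given.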

Additional observations from a re-analysis of the deposited data

How the results depend on the processing

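No ADE gene was called between media under any alternative run, the exceptions being counts of other probes. Against all 4 wild-type arrays limma called 57 gene probes in bur2, 8 in cho2 and 8 in npl3 medium. The control then holds wild-type arrays of both sets, so medium and set cannot be told apart in these counts. Between the sets 9.88% of gene probes were called. In bur2 minus cho2 medium 3 were called in the deposited log2 table. In cbf1 minus npl3 medium the count of 2 became 1 (deposited log2 table, offset of 10 or replicate block in each set) or 0 (loess per print tip, median centring, no dye term or only set 1). With median centring the members' median was 0.0020 in bur2 minus cho2 medium, and 0.019 in bur2 and 0.018 in cho2 medium against the reference, and the members without overlap numbered 0 in both bur2 minus cho2 and cho2 minus wild-type medium (1 for cho2 minus wild-type medium with loess per print tip). Set 2 minus set 1 had 277 probes called with median centring and 99 without the dye term, and turned sign for ADE6 (-0.0075) and ADE13 (-0.050) with loess per print tip and for ADE13 (-0.032) in the deposited log2 table. Against the reference the members' median was 0.045 (loess per print tip), 0.053 (deposited log2 table) and 0.048 (set 1 alone); set 2 alone called 2 members and turned ADE12 (-0.039). Members called became 2 (loess per print tip) or 3 (no dye term) in cbf1 medium, 1 (loess per print tip or deposited log2 table) or 0 (no dye term) in npl3 medium and 3 in cho2 medium (deposited log2 table). Without the dye term 1168 probes were called against the reference in bur2, 1250 in cho2, 1017 in wild-type medium of set 2, 1645 in cbf1, 1689 in npl3 and 1553 in wild-type medium of set 1. The cause was not tested.

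With 1 array left out, the calls against the reference over all media kept their direction and side for ADE1, ADE4, ADE6 and ADE8, ADE12 ran from -0.013 to 0.036 and ADE13 from -0.00064 to 0.027. Gene probes called ran from 0 to 25 in bur2, 0 to 1 in cho2, 0 to 2 in cbf1 and 0 to 36 in npl3 minus wild-type medium, 0 to 9 in bur2 minus cho2, 0 to 3 in cbf1 minus npl3 and 0 to 1 in pooled deletion-strain minus wild-type media. The members' medians ran from -0.11 to 0.11 in cbf1, -0.10 to 0.089 in npl3 and -0.048 to 0.047 in pooled media minus wild-type medium, and from -0.063 to 0.11 in cbf1 minus npl3 medium. ADE6 in cbf1 minus wild-type medium ran from -0.16 to 0.015, and in the pooled media ADE2 from -0.012 to 0.058 and ADE1 from -0.053 to 0.13. In set 2 minus set 1, 199 to 1288 probes and 0 to 2 members were called, the most without array 1 of the wild-type medium of set 1, with ADE13 from -0.026 to 0.029 and ADE17 from -0.028 to 0.079. Against the reference, probes called ran from 823 to 2446 in bur2 medium (0 to 1 members), 1045 to 2652 in cho2 medium (0 to 4), 770 to 2365 in wild-type medium of set 2 (0 to 1), 1489 to 2977 in cbf1 medium (1 to 6), 1147 to 2941 in npl3 medium (0 to 4, median -0.077 to 0.060) and 1398 to 2556 in wild-type medium of set 1 (1 to 4, median -0.059 to 0.16). A group left with 1 array is assumed to vary like the others.

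Whether the array numbers pair the arrays beyond the dye was not settled. After the dye term, the array 2 minus array 1 differences of the media were correlated over gene probes. These correlations lay between -0.47 and 0.54 for media of the same set, and between -0.76 and -0.049 across the sets. Removing the mean over the 6 groups makes such correlations negative on average. Besides the count above, a replicate block in each set took 1 call of an ADE gene, ADE4 in the wild-type medium of set 1 (0.14, adjusted p = 0.0519). ADE8 had the lowest signal over background of the members.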
